A study of Mus musculus with 10 samples.

Results

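Arg1, Arg2, Nos2, Il10, Tgfb1, Tgfb2, Ptgs2 and Ido1 encode enzymes and cytokines that restrain immune responses. These 8 genes, of the 31053 counted, were taken by symbol from the gene lists of the count files, and all 8 were found. They were followed in E0771 tumors, grown from a mouse mammary carcinoma line, of WT mice and of mice without Ago1 in endothelial cells (EC-AGO1-KO). KO mice came from a cross of a VE-Cadherin-Cre line, whose Cre acts in endothelial cells, with AGO1 flox/flox mice, and WT mice were their littermates, but which of these alleles the WT mice carried is not given in the sources used here. All mice were C57BL/6 females injected into the mammary fat pad at 16 weeks of age, and tumors were taken on day 21. The 5 WT tumors gave 5 droplet libraries, and the 7 KO tumors gave 5, because small KO tumors were pooled in pairs in the libraries KO 2+3 and KO 5+6. A single library of each group made up batch 1. The libraries WT 1, WT 3, WT 4, WT 5, KO 1, KO 2+3, KO 4 and KO 5+6 made up batch 2, which was sequenced on another instrument.

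Arginase 1 and arginase 2 break down arginine, the amino acid that the inducible nitric oxide synthase encoded by Nos2 uses to make nitric oxide, so the enzymes compete for one substrate in macrophages. Indoleamine 2,3-dioxygenase, the product of Ido1, breaks down tryptophan to kynurenine, and cyclooxygenase 2, the product of Ptgs2, makes the precursor of prostaglandin E2. Interleukin 10 is a cytokine of macrophages and some T cells that lowers the output of inflammatory cytokines. The TGF-beta ligands are secreted in a latent form and, once activated, act through receptor kinases and SMAD proteins on tumor cells, fibroblasts and T cells.

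Each molecule counted carried a unique molecular identifier (UMI). After barcodes outside 200 to 7000 genes or above 10% mitochondrial UMIs were dropped, 65298 remained, 2162 of them from batch 1. The total per library lay between 8323896 and 10591577 UMIs, and the median UMIs per kept barcode were 3862 and 4049 in batch 1 and 595 to 1142 in batch 2. Pairs of libraries shared at most 0.503% of their kept barcodes. Levels are given as CPM, that is UMIs scaled to a total of 1000000 per library or class with Actb left out of the total. Each batch was clustered on its own, and clusters were named by marker genes with the ending "-like". The tumor-like class held 55018 barcodes, the myeloid-like 2342, the T-like 1417, the dendritic-like 600, the fibroblast-like 573, the epithelial-like 447, the pericyte-like 271, the endothelial-like 197, the B-like 66 and the erythroid-like 29, and 4338 stayed unnamed. All 12 myeloid markers were at least 2-fold higher in the myeloid-like class than in the rest, whereas only Esx1 and Aebp1 of 7 tumor markers were so in the tumor-like class. Ago1, the targeted gene, had 0 UMIs in the 70 endothelial-like barcodes of WT and 0 in the 127 of KO tumors, which allows shares of barcodes with a UMI of up to 4.29% and 2.36% and says nothing of the share of cells that express it. The deletion could therefore not be checked there. In whole libraries Ago1 lay between 4.97 and 7.21 CPM in WT and between 4.97 and 7.96 CPM in KO tumors.

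The 8 genes are spread over 6 chromosomes of the mm10 genome (GRCm38). Arg1 lies at chr10:24915221-24927484 on the minus strand, Arg2 at chr12:79130777-79156301 on the plus strand, Nos2 at chr11:78920787-78960254 on the plus strand and Ido1 at chr8:24584136-24597009 on the minus strand. Ptgs2 (chr1:150100031-150108227, plus), Il10 (chr1:131019845-131024974, plus) and Tgfb2 (chr1:186622792-186705989, minus) share chromosome 1, and Tgfb1 lies at chr7:25687002-25705077 on the plus strand. These spans are whole genes in the GENCODE annotation, and the 3′ chemistry counts transcripts near their 3′ ends.

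Promoter sequences were at hand for Tgfb1, Tgfb2 and Ptgs2, from RefSeq on GRCm38.p6. Only these are shown because no promoter sequence was at hand for the other genes. These 3 genes also had the most UMIs of the 8 and were held by different cells. Tgfb1 was held by every named class of batch 1, Tgfb2 mainly by tumor-like and stromal cells and Ptgs2 by myeloid-like and fibroblast-like cells. Each line gives the 250 bases before the start of the gene, 5′ to 3′ on the strand of the gene, and capitals mark a match to a motif searched on both strands. The Tgfb1 sequence is chr7:25686752-25687001, that of Tgfb2 is chr1:186705990-186706239 and that of Ptgs2 is chr1:150099781-150100030.
Tgfb1: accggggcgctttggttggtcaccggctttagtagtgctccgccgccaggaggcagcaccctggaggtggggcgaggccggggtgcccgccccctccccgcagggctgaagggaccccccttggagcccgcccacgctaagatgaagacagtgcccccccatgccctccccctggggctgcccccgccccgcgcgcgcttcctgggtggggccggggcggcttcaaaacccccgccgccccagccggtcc
Tgfb2: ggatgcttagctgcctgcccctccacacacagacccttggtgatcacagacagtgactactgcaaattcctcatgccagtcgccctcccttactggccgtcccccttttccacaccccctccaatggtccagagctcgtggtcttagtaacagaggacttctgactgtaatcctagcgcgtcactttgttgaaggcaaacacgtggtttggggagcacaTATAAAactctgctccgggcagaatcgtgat
Ptgs2: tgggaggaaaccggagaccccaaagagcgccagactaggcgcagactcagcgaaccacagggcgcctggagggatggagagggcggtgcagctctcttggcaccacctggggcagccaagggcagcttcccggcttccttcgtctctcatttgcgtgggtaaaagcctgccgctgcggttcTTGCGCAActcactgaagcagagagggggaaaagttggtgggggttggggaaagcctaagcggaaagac
The motifs were the TATA box TATAAA, the C/EBP motif TTGCNNAA, the AP-1 motif TGANTCA and the STAT motif TTCNNNGAA. Tgfb2 held 1 TATAAA, found in 12.4% of 32851 promoter windows of that length, and Ptgs2 held 1 TTGCNNAA, found in 9.56%. The shares for TGANTCA and TTCNNNGAA, found in none of the 3, were 6.75% and 7.02%. Tgfb1 held none of the 4, and its window was 75.2% G and C, against 53.6% in Tgfb2 and 61.6% in Ptgs2. A match is a description of the letters and not a measured site.

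In all kept barcodes Tgfb1 had 4830 UMIs, Tgfb2 661, Ptgs2 268, Il10 230, Arg2 138, Arg1 93, Nos2 51 and Ido1 27. Batch 1 gave 22.3% of all UMIs, and against that share it held 77.6% of the Ptgs2, 73.5% of the Tgfb1, 51.6% of the Arg1, 49.0% of the Nos2, 31.3% of the Il10, 23.9% of the Arg2 and 17.1% of the Tgfb2 UMIs, and none of Ido1. The class that held a gene therefore has to be read in each batch.

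**Figure D1:**
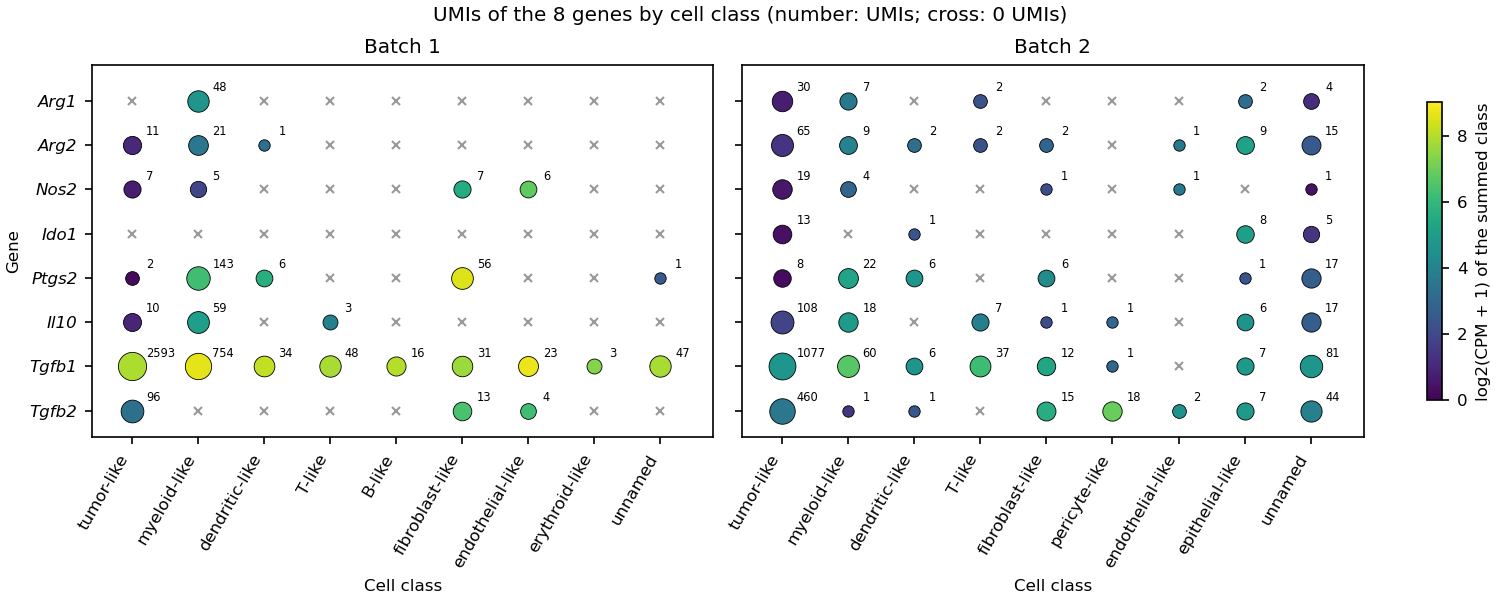
UMIs of the 8 genes in each cell class (columns) of batch 1 (left, 2 libraries) and batch 2 (right, 8 libraries). Colour gives log2(CPM + 1) of the summed class, dot area grows with the logarithm of the UMIs, the number is the UMIs and a cross marks 0 UMIs. Arg1 had UMIs only in the myeloid-like class in batch 1 (48), while Tgfb2 had 0 there and 96 in the tumor-like class.

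Arg1, the cytosolic arginase of alternatively activated macrophages, was a myeloid-like gene in batch 1. All 48 of its UMIs in that batch fell in the myeloid-like class, in 14 of 710 barcodes (1.97%, exact 95% interval 1.08% to 3.29%), and 0 fell in the 951 tumor-like barcodes, which allows a share of up to 0.315%. They came from 2 of the 8 myeloid-like clusters of batch 1. The cluster led by Ccl8, Pf4, Mrc1, Wfdc17 and Ccl6 held 28 UMIs in 10 of 103 barcodes, and the cluster led by Cxcl2, Mmp12, Il1rn, Mmp13 and Clec4d held 20 in 4 of 78. Mrc1 encodes the mannose receptor of macrophages and Mmp12 their elastase.

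Few barcodes carried the Arg1 signal. Of the 14 positive barcodes 7 had 1 UMI, and single barcodes of the WT library held 17 and 10 of its 41 UMIs. In batch 2 the myeloid-like class had 7 Arg1 UMIs in 7 of 1632 barcodes (0.429%), and the tumor-like class had 30 in 30 of 54067 barcodes (0.0555%). The tumor-like level in batch 2 was 0.706 CPM. In 8 of 8 libraries it was below the level in barcodes with at most 50 UMIs, a measure of free RNA. Free RNA was estimated to give 31.1 UMIs there, so these 30 cannot be told from background. In the myeloid-like class of batch 2 the level was 11.4 CPM and the free RNA estimate was 0.575 UMIs. Median depth was 362 UMIs in the myeloid-like and 711 in the tumor-like barcodes of batch 2. Thinned to 500 UMIs per barcode, the share of Arg1-positive myeloid-like barcodes was 0.434% in batch 1 (3 of 692) and 0.450% in batch 2 (1 of 222), and counts this small set no order.

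Arg2, the mitochondrial arginase, was spread more widely. In batch 1 the myeloid-like class held 21 of its 33 UMIs, 12 of them in the cluster led by Plac8, Ly6c2, Clec4e, Gda and Ifitm6, genes of monocytes. That cluster had 7 Arg2 UMIs in the WT and 5 in the KO library. In batch 2 the tumor-like class held 65 of 105 UMIs at 1.53 CPM, below the free RNA level in 8 of 8 libraries, the myeloid-like class held 9 at 14.7 CPM and the epithelial-like class 9 at 35.8 CPM. The epithelial-like cluster led by Prlr, Ptn, Epcam, Gata3 and Nrxn3, with the prolactin receptor and epithelial genes, held 8 of these 9 in 8 of its 134 barcodes.

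Nos2 had few UMIs, and in batch 1 its level was highest in endothelial-like and fibroblast-like cells. The 710 myeloid-like barcodes of batch 1 had 5 UMIs in 3 barcodes, and the 1632 of batch 2 had 4 in 4. The fibroblast-like cluster of batch 1, led by Col1a1, Col1a2, Col3a1, Postn and Bgn, had 7 UMIs at 45.5 CPM, all in 1 of its 24 barcodes. The 14 endothelial-like barcodes of that batch had 6 in 3 barcodes at 111 CPM, where 3 UMIs would be 55.3 CPM. The 183 endothelial-like barcodes of batch 2 had 1. In the tumor-like class of batch 2 Nos2 had 19 UMIs at 0.447 CPM, where free RNA was estimated to give 65.8. The estimate was above the count and so too high here, and these UMIs cannot be told from background. Arg1 and Nos2 were found together in 1 myeloid-like barcode of batch 1, out of 14 with Arg1 and 3 with Nos2.

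Ido1 had no UMI in any of the 2342 myeloid-like barcodes, which allows a share of barcodes with a UMI of up to 0.423% in batch 1 and 0.184% in batch 2. At a median of 362 UMIs per barcode in batch 2 this does not limit the share of cells that express the gene, and the same holds for the other shares at a count of 0. Of its 27 UMIs, all in batch 2, 13 lay in the tumor-like class, where free RNA was estimated to give 26.6. The epithelial-like class held 8 UMIs in 6 of 447 barcodes (1.34%), at 31.8 CPM, and all 8 came from the cluster led by Prlr, Ptn, Epcam, Gata3 and Nrxn3. The 600 dendritic-like barcodes, a cell type known for Ido1, held 1.

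In batch 1 Ptgs2 was highest in fibroblast-like cells, followed by myeloid-like cells. The 24 fibroblast-like barcodes held 56 UMIs in 9 barcodes at 364 CPM, although single barcodes held 22 and 15 of them. The myeloid-like class of batch 1 held 143 UMIs in 85 of 710 barcodes (11.97%, exact 95% interval 9.68% to 14.6%) at 74.9 CPM, and the tumor-like class 2 UMIs in 951 barcodes at 0.182 CPM. Within the myeloid-like class the interferon and monocyte cluster led by Ly6c2, Cxcl10, Plac8, Ifi205 and Ms4a4c had 24 UMIs in 14 of 65 barcodes, the Cxcl2 and Mmp12 cluster 33 in 20 of 78 and the Plac8 and Ly6c2 cluster 31 in 17 of 116.

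In batch 2 the order of the myeloid-like and tumor-like classes was the same for Ptgs2. The myeloid-like and fibroblast-like levels were lower than in batch 1, and the tumor-like level was not. The myeloid-like class had 22 UMIs in 22 of 1632 barcodes (1.35%) at 35.8 CPM, the dendritic-like class 6 at 25.6 CPM, the fibroblast-like class 6 at 19.3 CPM and the tumor-like class 8 in 54067 barcodes at 0.188 CPM. Among barcodes with at least 500 UMIs, thinned to 500, 3.76% of myeloid-like ones were positive in batch 1 (26 of 692) and 1.35% in batch 2 (3 of 222). The 3 positive barcodes of batch 2 are too few to set an order. The 2 myeloid-like libraries of batch 1, at 63.7 and 87.7 CPM, lay above all 8 of batch 2, at 0 to 55.8 CPM. The summed myeloid-like level was 2.09 times higher in batch 1. A ratio as large was seen in 29.7% of 4106 genes with at least 100 UMIs in that class, where the median was 0.705. A difference of this size was thus common among genes. A further 17 UMIs of batch 2 lay in unnamed clusters. In the tumor-like class of batch 2 free RNA was estimated to give 61.5 Ptgs2 UMIs where 8 were counted, so that estimate was too high.

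Il10 was the member whose myeloid-like level was closest between the batches. It had 59 UMIs in 38 of 710 barcodes (5.35%) at 30.9 CPM in batch 1 and 18 UMIs in 16 of 1632 barcodes (0.980%) at 29.3 CPM in batch 2, where the median barcode was shallower (362 against 2533.5 UMIs). The free RNA estimates were 0.8292 and 0.688 UMIs. In batch 1 the cluster led by Ifit3, Rsad2, Cxcl10, Ccl12 and Ifit3b, genes of the interferon response, held 12 UMIs in 4 of 56 barcodes, of which 8 were in 1 barcode. The Cxcl2 and Mmp12 cluster held 15 in 9 of 78 barcodes and the Ccl8 and Mrc1 cluster 14 in 10 of 103.

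Outside the myeloid-like class, Il10 had 3 UMIs in 111 T-like barcodes of batch 1 (14.0 CPM) and 7 in 1306 of batch 2 (13.4 CPM). The epithelial-like class of batch 2 had 6 in 5 of 447 barcodes, at 23.8 CPM. Unnamed clusters of batch 2 held 11 Il10 UMIs in the WT and 6 in the KO libraries. Of these, 12 lay in the unnamed cluster led by Gm26522, Srgn, Pid1, Ctsc and Adap2os, at 10.3 CPM. The tumor-like class of batch 2 held 108 UMIs in 104 barcodes (0.192%) at 2.54 CPM. Free RNA was estimated to give 34.0 of these UMIs (31.5%), so the count was above that estimate, while the CPM itself was below that of barcodes with at most 50 UMIs in 7 of 8 libraries. Of the 38 Il10-positive myeloid-like barcodes of batch 1, 3 also held Arg1 (7.89%, and 21.4% of the Arg1-positive barcodes) and 5 held Ptgs2 (13.2%, and 5.88% of the Ptgs2-positive barcodes).

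**Figure D2:**
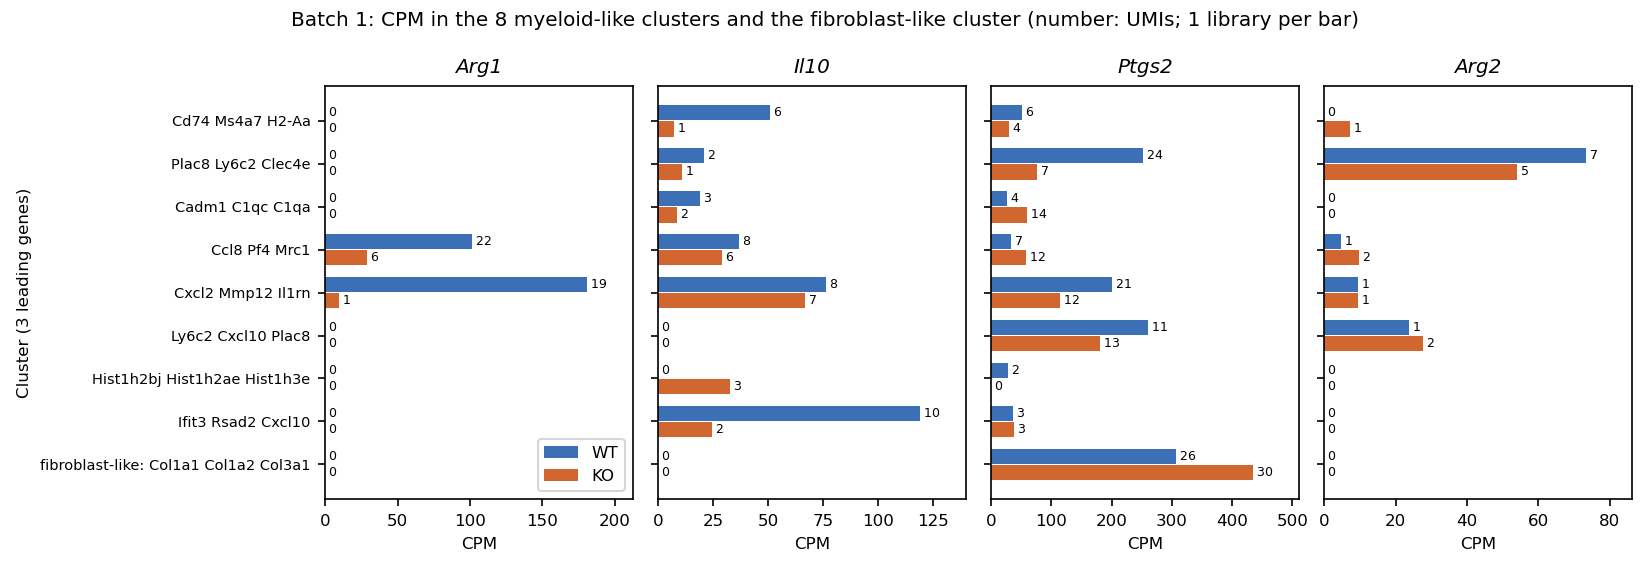
CPM of Arg1, Il10, Ptgs2 and Arg2 in the 8 myeloid-like clusters and the fibroblast-like cluster of batch 1, by 3 leading genes. Each bar is 1 library (WT blue, KO orange) and the number is its UMIs, so there is no error bar. Arg1 UMIs lay only in the Ccl8 and the Cxcl2 clusters, with 22 and 19 in the WT and 6 and 1 in the KO library, while Ptgs2 was spread over 8 of the 9 in the KO library and all in the WT library.

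Tgfb1, the ligand most cells make, had UMIs in every named class of batch 1. Its level was highest in the 14 endothelial-like barcodes, with 23 UMIs at 424 CPM. It was at 236 CPM in the tumor-like, 395 in the myeloid-like, 285 in the dendritic-like, 223 in the T-like, 255 in the B-like and 201 in the fibroblast-like class, each summed over the 2 libraries. In batch 2 it was at 25.3 CPM in the tumor-like, 97.7 in the myeloid-like, 70.9 in the T-like, 38.6 in the fibroblast-like, 25.6 in the dendritic-like and 27.8 in the epithelial-like class, and the 183 endothelial-like barcodes had 0 UMIs, where 3 UMIs would be 33.6 CPM. The tumor-like level was 9.31 times higher in batch 1 than in batch 2, the myeloid-like level 4.04 times and the T-like level 3.15 times, and the libraries of the batches did not overlap in these 3 classes. A ratio as large was seen in 2.63% of 11723 genes with at least 100 UMIs in the tumor-like class, where the median ratio was 0.939, and in 19.2% of 4106 genes in the myeloid-like class, where the median was 0.705. The instrument and the depth per barcode differed between the batches, and the part of either in this ratio was not tested.

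Within both batches the myeloid-like level of Tgfb1 was above the tumor-like level, by the values above, and all 8 batch 2 libraries had a higher myeloid-like than tumor-like level. The tumor-like level of batch 2 was below the free RNA level, 25.4 to 40.1 CPM, in 8 of 8 libraries, and 284 of the 1077 UMIs were estimated to be free RNA. In batch 1 both tumor-like libraries, at 226 and 247 CPM, were above the free RNA levels of 74.3 and 78.4 CPM.

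Tgfb2 lay mainly in tumor-like and stromal cells. In batch 2 it was also found in 7 of 447 epithelial-like barcodes, with 1 UMI each. The 2 epithelial-like clusters had 3 UMIs at 18.6 CPM and 4 at 44.3 CPM. In batch 1 it had 96 UMIs in 83 of 951 tumor-like barcodes (8.73%) at 8.73 CPM, 13 in the 24 fibroblast-like barcodes at 84.4 CPM, 4 in the 14 endothelial-like barcodes and 0 in the 710 myeloid-like barcodes, which allows a share of up to 0.423%. In batch 2 the tumor-like class had 460 UMIs in 452 of 54067 barcodes (0.836%) at 10.8 CPM, the fibroblast-like class 15 at 48.3 CPM, the pericyte-like class 18 in 15 of 271 barcodes (5.54%) at 123 CPM, and the myeloid-like class 1 UMI in 1632 barcodes (0.0613%) at 1.63 CPM. The 2 batches thus differed little in the tumor-like level, with a ratio of 0.807, where that of Tgfb1 was 9.31. Of the 460 tumor-like UMIs of batch 2, 173 were estimated to be free RNA, and in 7 of the 8 libraries the tumor-like level was below that of barcodes with at most 50 UMIs, which lay between 14.6 and 31.0 CPM. In batch 1 both tumor-like libraries were above it, at 8.09 and 9.28 against 0.817 and 2.67 CPM. The part of free RNA in the batch 2 levels was not tested further.

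The genes whose levels over the 44 clusters were most like those of each member were listed by Pearson's r of log2(CPM + 10). The clusters share libraries, depth and batch, and the coefficients are descriptions. For Arg1 they were Atp6v0d2 (0.85), Slc40a1 (0.81) and Mmp12 (0.68), where Slc40a1 encodes the iron exporter ferroportin. For Il10 they were Lonrf3 (0.80), Ms4a14 (0.75) and the macrophage receptor Trem2 (0.73), and for Ptgs2 the complement gene C3 (0.88), Qpct (0.84) and Metrnl (0.83). For Tgfb2 they were Cyr61 (0.90), Dlc1 (0.88) and the laminin gene Lamb2 (0.86), for Nos2 Lrrc32 (0.86), Cd34 (0.85) and S100a16 (0.84), and for Arg2 Lsr (0.74), Nrg4 (0.72) and Arhgef10l (0.72). The highest Nos2 levels were those of the endothelial-like and fibroblast-like clusters of batch 1, with 6 UMIs in 3 barcodes and 7 in 1 barcode, so its coefficients rest on few barcodes. For Tgfb1 they were Sec61g (0.93), Ndufb6 (0.93) and Mrps24 (0.93), genes of protein export, the respiratory chain and the mitochondrial ribosome. Ido1 had fewer than 50 UMIs and was left out.

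The next question was whether loss of endothelial Ago1 went with other levels of these genes in the tumor. UMIs were summed per library and compared by edgeR's quasi-likelihood test with batch as a covariate and Benjamini-Hochberg adjustment over all genes tested. In whole libraries 0 of 12450 genes passed an adjusted p of 0.05 (0%), with 1102 at an unadjusted p under 0.05, and DESeq2 called 2. The counts were 0 of 1709 genes in myeloid-like cells (0%, 78 at an unadjusted p under 0.05, 0 by DESeq2), 0 of 11479 in tumor-like cells (0%, 617, 3 by DESeq2) and 6 of 1147 in T-like cells (0.523%, all lower in KO, 1 by DESeq2). The filter on low counts kept Arg2, Il10, Tgfb1 and Tgfb2 in whole libraries and Il10, Tgfb1 and Tgfb2 in tumor-like cells. It kept no member in myeloid-like or T-like cells. The filter asks for a minimum level in several libraries and not only for a total. Ptgs2, with 268 UMIs of which 77.6% lay in batch 1, was dropped, while Il10, with 230, was kept in whole libraries. None of the members tested was called. In whole libraries fewer cells of a type and less RNA per cell cannot be told apart.

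Of the members that passed the filter, Tgfb2 had the smallest p. In whole libraries of batch 1 its level was 9.15 CPM for WT and 7.21 CPM for KO. In batch 2 it was at 14.9, 12.5, 11.6 and 12.7 CPM in WT 1, WT 3, WT 4 and WT 5, and at 8.47, 10.9, 9.94 and 9.52 CPM in KO 1, KO 2+3, KO 4 and KO 5+6. The KO level was below the WT level in both batches, and in batch 2 the groups did not overlap, as was so for 0.586% of the genes tested in this direction and for 3.82% in the other. The log2 fold change of KO over WT was -0.46 ± 0.15 (SE, n = 5 and 5), which is 1.38 times higher in WT, with an edgeR p of 0.00617 and an adjusted p of 0.462, rank 159 of 12450, so the difference did not pass the test. Over the alternatives for this value the adjusted p ranged from 0.309 to 1.00.

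In tumor-like cells alone Tgfb2 was at 9.28, 15.2, 10.7, 10.62 and 12.4 CPM in the WT libraries of batch 1 and WT 1, 3, 4 and 5, and at 8.09, 7.79, 11.4, 9.59 and 7.50 CPM in the KO libraries of batch 1 and KO 1, 2+3, 4 and 5+6. The groups overlapped here, with KO 2+3 above 3 of the 5 WT libraries. The log2 fold change was -0.43 ± 0.17 (SE, n = 5 and 5), with an edgeR adjusted p of 0.876 and a range from 0.663 to 1.00 over the alternatives.

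Tgfb1 lay in narrow ranges within each batch. In whole libraries the WT library of batch 1 was at 248 CPM and the KO library at 269 CPM. The 4 WT libraries of batch 2 had a mean of 25.4 ± 1.14 CPM and the 4 KO libraries 28.4 ± 2.58 CPM (± SD). Whole libraries of batch 1 were 9.65 times higher than those of batch 2. The log2 fold change was 0.09 ± 0.11 (SE) with an edgeR adjusted p of 0.862 in whole libraries, and 0.10 ± 0.11 with 0.919 in tumor-like cells.

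**Figure D3:**
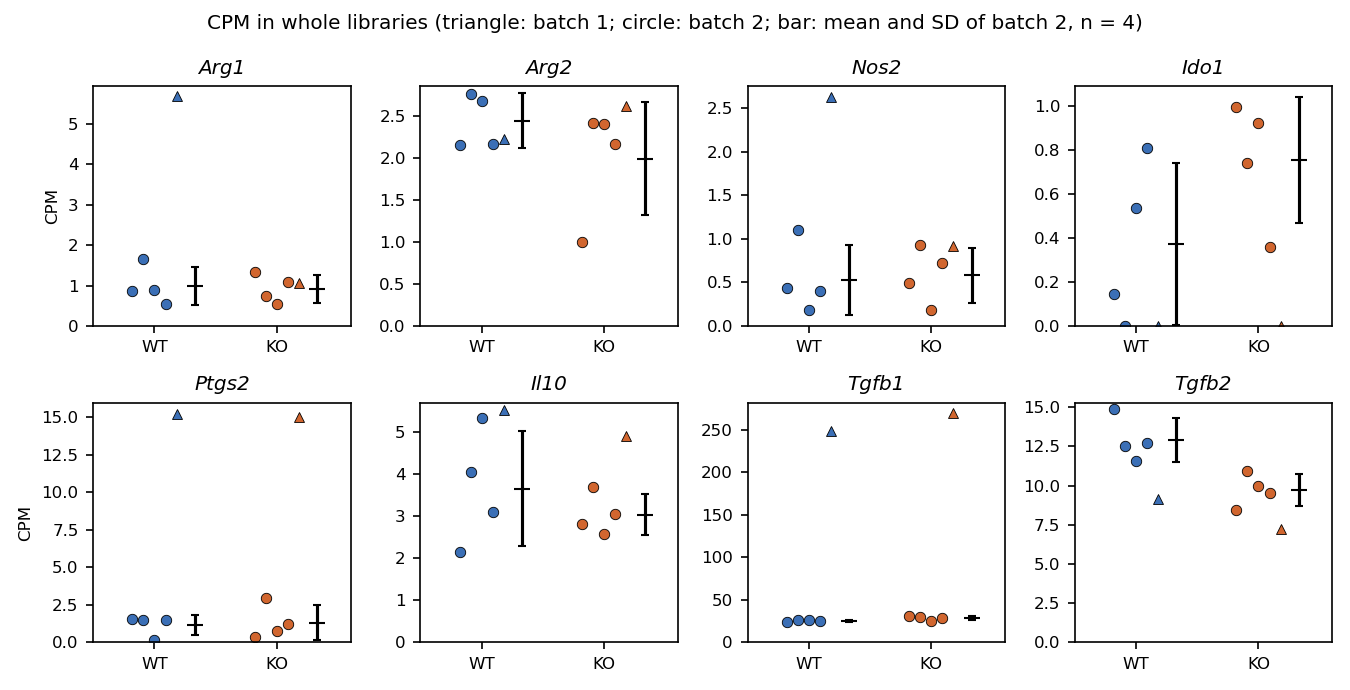
CPM of the 8 genes in whole libraries of WT (blue) and KO (orange) tumors. Triangles are batch 1 and circles batch 2, each point is 1 library, and the bar is the mean and SD of the 4 batch 2 libraries. For Tgfb1 and Ptgs2 the batch 1 libraries stand apart in both groups. For Arg1 and Nos2 the batch 1 WT library is the highest, and for Tgfb2 the groups do not overlap in batch 2.

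The estimates for Il10 and Arg2 lay below 0 by about their standard error. Il10 was at 5.54, 2.15, 4.05, 5.35 and 3.104 CPM in the WT libraries of batch 1 and WT 1, 3, 4 and 5, and at 4.91, 2.82, 3.70, 2.58 and 3.05 CPM in the KO libraries of batch 1 and KO 1, 2+3, 4 and 5+6. Its log2 fold change was -0.29 ± 0.26 (SE) with an edgeR adjusted p of 0.778 in whole libraries and -0.29 ± 0.38 with 0.932 in tumor-like cells. The tumor-like value turned to 0.07 without library WT 4, which was at 5.02 CPM. Arg2 was at 2.15 to 2.76 CPM in the 5 WT libraries and at 0.997 to 2.61 CPM in the 5 KO libraries, with KO 1 lowest, and its log2 fold change was -0.24 ± 0.28 (SE) with an edgeR adjusted p of 0.855.

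Arg1 is the gene that batch 1 decided. In whole libraries of batch 1 its level was 5.68 CPM for WT and 1.07 CPM for KO, and in batch 2 it was 0.860, 1.66, 0.891 and 0.540 CPM in WT 1, 3, 4 and 5 and 1.33, 0.741, 0.552 and 1.08 CPM in KO 1, 2+3, 4 and 5+6. The batch 2 groups overlapped, with means of 0.987 ± 0.474 and 0.925 ± 0.346 CPM (SD, n = 4 each). In myeloid-like cells the WT library of batch 1 had 41 UMIs (46.1 CPM) and the KO library 7 (6.86 CPM), from 348 and 362 barcodes. In batch 2 the WT libraries had 0, 2, 0 and 0 UMIs and the KO libraries 0, 3, 1 and 1, so the side with more UMIs was KO. They came from 647 WT and 985 KO barcodes, and the summed levels were 7.85 CPM for WT and 13.9 CPM for KO. Counts this small set no order.

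Arg1 was below the filter on low counts, and its fold change was fitted without that filter, a choice made after its values were seen. In myeloid-like cells the log2 fold change of KO over WT was -1.80 ± 0.56 (SE), with an edgeR adjusted p of 0.635 over 18663 genes. It was 0.79 ± 1.15 with the 8 libraries of batch 2 alone, so the sign turned. It was 0.85 once either batch 1 library, WT or KO, was left out. The batch term then takes up the other batch 1 library, so those fits rest on batch 2 again and are no separate check. In whole libraries it was -0.88 ± 0.41 with an edgeR adjusted p of 0.521, and -0.14 ± 0.51 in batch 2 alone. The batch 1 pair is 1 tumor of each kind and has no replicate.

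**Figure D4:**
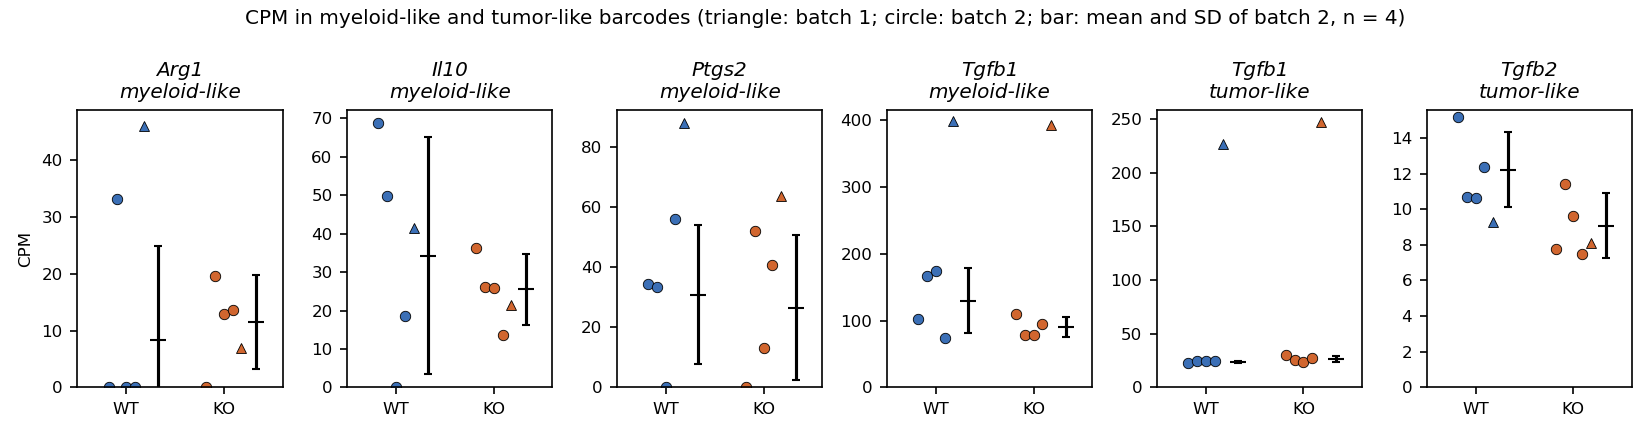
CPM in the myeloid-like barcodes (Arg1, Il10, Ptgs2, Tgfb1) and the tumor-like barcodes (Tgfb1, Tgfb2) of each library, WT in blue and KO in orange. Triangles are batch 1 and circles batch 2, and the bar is the mean and SD of the 4 batch 2 libraries. For Arg1 the batch 1 WT library is highest at 46.1 CPM and 3 of the 4 batch 2 WT libraries are at 0.

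Nos2 was also highest in that library. It was at 2.63 CPM in the WT library of batch 1, where 7 of its 19 UMIs came from 1 fibroblast-like barcode, and at 0.920 CPM in the KO library. The batch 2 means were 0.529 ± 0.3997 CPM for WT and 0.582 ± 0.317 CPM for KO (SD, n = 4 each). Fitted without the filter, its log2 fold change was -0.52 ± 0.51 with an edgeR adjusted p of 0.770, and 0.07 ± 0.64 in batch 2 alone. Ido1 was at 0 CPM in both libraries of batch 1, at 0.143, 0, 0.535 and 0.810 CPM in WT 1, 3, 4 and 5 and at 0.997, 0.741, 0.921 and 0.359 CPM in KO 1, 2+3, 4 and 5+6, that is 10 UMIs against 17, and the groups overlapped.

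Ptgs2 and Il10 in myeloid-like cells varied more between libraries than between groups. For Il10 the WT libraries of batch 1 and WT 1, 3, 4 and 5 were at 41.6, 68.7, 49.9, 0 and 18.6 CPM, and the KO libraries of batch 1 and KO 1, 2+3, 4 and 5+6 at 21.6, 36.4, 26.1, 25.9 and 13.6 CPM. WT 4, the library at 0, had 58 myeloid-like barcodes, the fewest, and 3 UMIs there correspond to 104 CPM. The log2 fold change, fitted without the filter, was -0.79 ± 0.44 (SE) with an edgeR adjusted p of 0.780, and -0.36 ± 0.76 in batch 2 alone. For Ptgs2 the same WT libraries were at 87.7, 34.3, 33.3, 0 and 55.8 CPM and the KO libraries at 63.7, 0, 52.1, 13.0 and 40.7 CPM, with a log2 fold change of -0.42 ± 0.38 and an adjusted p of 0.780. For Tgfb1 in these cells it was -0.21 ± 0.30 with 0.895.

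**Figure D5:**
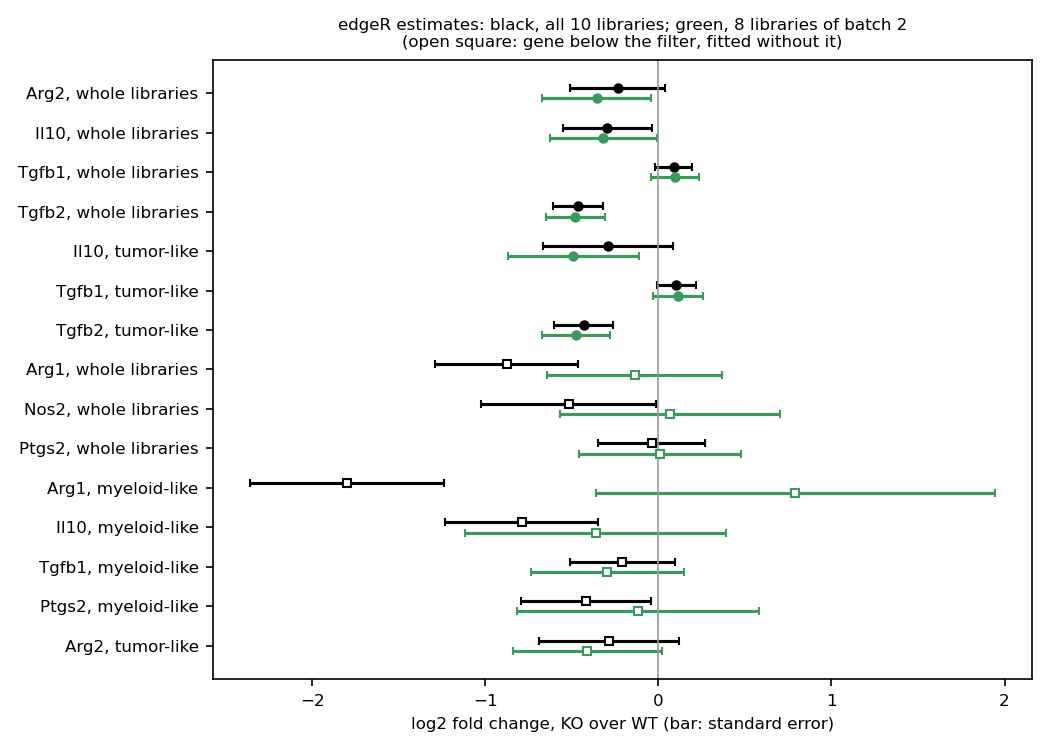
log2 fold change of KO over WT with its standard error, by edgeR, for members with enough UMIs in a class. Black points use all 10 libraries and green points the 8 of batch 2, and open squares mark genes below the filter, fitted without it. Tgfb2 keeps its place at -0.46 and -0.48 in whole libraries, while Arg1 in myeloid-like cells goes from -1.80 to 0.79.

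Partners of the 8 genes were followed in 6 lists: arginine metabolism (16 genes, 12 tested in whole libraries), IL-10 signalling (11, 10 tested), TGF-beta signalling (23, 21 tested), prostaglandin synthesis and receptors (16, 9 tested), tryptophan and kynurenine metabolism (12, 6 tested) and regulators of Arg1 and Nos2 (16, 14 tested). No gene of these lists was called in whole libraries, where 0% of all genes were, nor in myeloid-like, tumor-like or T-like cells. The median log2 fold changes in whole libraries were 0.01, 0.31, 0.06, 0.07, 0.12 and 0.18 in that order, beside -0.0025 over all genes tested. Those of tumor-like cells were -0.01, -0.01, -0.06, 0.06, 0.05 and 0.12, beside 0.0020.

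None of the partners with the most UMIs passed the test, and each value below is a log2 fold change of KO over WT with its SE. In arginine metabolism they were Gatm, which makes the precursor of creatine (-0.28 ± 0.25 on the log2 scale, edgeR adjusted p 0.774), and the polyamine genes Sat1 (0.09 ± 0.18) and Sms (-0.06 ± 0.12). Among IL-10 partners they were Stat3 (0.09 ± 0.16), the factor the receptor activates, Jak1 (0.01 ± 0.10) and Socs3 (0.43 ± 0.20, adjusted p 0.563). Among TGF-beta partners they were Furin, which cleaves the precursor (0.03 ± 0.15), the coreceptor gene Tgfbr3 (-0.15 ± 0.12) and Skil (0.06 ± 0.14), in the prostaglandin list Ptges3 (-0.04 ± 0.13), Abcc4 (-0.23 ± 0.14) and Ptges (-0.0022 ± 0.12), in the tryptophan list Eif2ak4 (-0.10 ± 0.11), Slc3a2 (-0.06 ± 0.11) and Slc7a5 (0.12 ± 0.14), and among the regulators Hif1a (-0.03 ± 0.14), Cebpb (0.15 ± 0.15) and Nfkb1 (-0.10 ± 0.13).

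Some partners were higher in the myeloid-like class and others in the tumor-like class, and no count over the lists was made. Sat1 was at 1083 CPM in the myeloid-like and 65.5 CPM in the tumor-like class of batch 1, and at 1248 and 114 CPM in batch 2. Cebpb, which encodes a factor known to bind at Arg1 and Ptgs2, was at 550 and 370 CPM in the myeloid-like and tumor-like classes of batch 1 and at 148 and 117 CPM in batch 2. Tgfbr3 was at 2.09 and 135 CPM in those classes of batch 1 and at 99.4 and 423 CPM in batch 2, so it was lower in the myeloid-like class in each batch. So was Ptges3, at 391 and 1248 CPM in batch 1 and at 1820 and 4083 CPM in batch 2. Ptges, the prostaglandin E synthase gene, was at 3.14 and 72.8 CPM in batch 1 and at 11.4 and 33.4 CPM in batch 2, the other way round from Ptgs2. Furin was at 138 and 179 CPM in batch 1 and at 997 and 1447 CPM in batch 2, the other way round from Tgfb1.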

How the data were processed

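Single-cell RNA was measured in 10 libraries, 5 of WT and 5 of EC-AGO1-KO tumors, grouped by their labels. The authors deposited raw UMI counts per gene and barcode, made with Cell Ranger 7.1.0 on mm10 per the labels and before empty droplets were removed. Whether intron reads were counted is not given in the sources used here.

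The 8 genes, the marker lists and the partner lists were chosen with earlier results of these data known. Kept barcodes had 200 to 7000 genes and no more than 10% mitochondrial UMIs, and Actb was left out of totals and clustering. Each batch was clustered separately on 2000 variable genes without the 8 genes or Ago1 (30 components, 15 neighbours, Leiden resolution 1, scanpy 1.11.5), in 2 rounds. A cluster took the class with the most of at least 3 markers, 2-fold above the rest of its batch with 20 CPM added and in 2% of barcodes. Clusters whose tumor marker level was over 75% of that of tumor clusters were left unnamed as mixtures. These limits were set after the clusters were seen and before WT and KO were compared. No doublet caller was run, and differences from the study's cell types may come from these rebuilt names.

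UMIs were summed per library and class and tested by edgeR 4.0.16 (TMM, filterByExpr, quasi-likelihood, batch term, Benjamini-Hochberg adjustment, threshold 0.05) in R 4.3.3. Each library is 1 sample, and p-values measure the spread among these libraries. DESeq2 1.42.0 and the other alternatives are given in the closing section. The fit was tested on simulated data with 200 changed genes. Genes named were the 8, the 3 most like each over clusters, the 3 partners per list with the most UMIs and the 5 leading genes of clusters. Free RNA was taken from barcodes with at most 50 UMIs. Its estimate exceeded the UMIs counted for Arg1, Arg2, Nos2, Ptgs2 and Ido1 in tumor-like barcodes of batch 2, so the estimates are rough. Intervals are exact 95% intervals, a count of 0 allows up to 3 counts, and both cover counting error only. Replicate numbers 1 and 4 occur in both groups as unpooled libraries. Numbers 3 and 5 occur in WT and within the pooled libraries KO 2+3 and KO 5+6. Nothing in the labels ties libraries of the same number.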

Additional observations from a re-analysis of the deposited data

Results flagged for a closer look

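Of 45 sets compared by Dixon's test on the CPM of a member, 11 held a library far from the others, and 8 of these libraries were of batch 1. A set was the 5 WT or the 5 KO libraries, with 1 library of batch 1 in each. Chance gives about 1 in 20 for sets of a single batch. That rate does not hold here, where a batch difference alone can set the batch 1 library apart. In whole libraries the batch 1 libraries stood apart for Tgfb1, at 248 CPM in WT (others 24.1 to 26.5) and 269 CPM in KO (others 24.9 to 30.7), and for Ptgs2, at 15.2 CPM in WT (others 0.178 to 1.58) and 15 CPM in KO (others 0.332 to 2.96). In tumor-like cells Tgfb1 was at 226 CPM in the WT and 247 CPM in the KO library of batch 1, and in myeloid-like cells at 392 CPM in the KO library. Arg1 stood apart in the WT library of batch 1, at 5.68 CPM in whole libraries (others 0.540 to 1.66).

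Outside batch 1, Arg2 was low in KO 1, at 0.997 CPM in whole libraries (others 2.16 to 2.61). In myeloid-like cells Nos2 was at 13.0 CPM in KO 2+3, which is 2 UMIs, and Tgfb2 was at 13.0 CPM in KO 4, which is 1 UMI. The other KO libraries had no Tgfb2 UMI there, and such a set is always flagged.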

How the results depend on the processing

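No member tested was called under any alternative, and 131 of 132 fold changes of tested members kept their sign. The exception was Il10 in tumor-like cells, from -0.49 to 0.074 with each library left out (0.074 without WT 4). Fitted without the filter, Arg1 in myeloid-like cells lay between -2.27 (without KO 2+3) and 0.85 (without either batch 1 library), at -1.97 without WT 5, and at 0.79 in batch 2 alone. Nos2 in whole libraries lay between -0.80 (without KO 2+3) and 0.074 (without either batch 1 library), at -0.69 without WT 4, and at 0.067 in batch 2 alone. Ptgs2 in whole libraries lay between -0.39 (without KO 2+3) and 0.14 (without KO 1), at -0.20 without WT 4, 0.012 without either batch 1 library, and 0.0076 in batch 2 alone. For all 3 genes the fits without either batch 1 library repeat the batch 2 comparison, because the batch term takes up the other library. Counts of called genes in whole libraries, myeloid-like, tumor-like and T-like cells were 0, 0, 0 and 6. Without the filter they were 242, 8, 37 and 0, with no member among them. DESeq2 gave 2, 0, 3 and 1. With each library left out they ranged from 0 to 1, 0 to 2, 0 to 0 and 0 to 17 (1 without KO 4, 2 without WT 4 and 17 without KO 1). With a replicate block for numbers 1 and 4, the counts were 0, 0, 0 and 2, and Tgfb2 in whole libraries was at -0.46. In T-like cells the count was 0 without a batch term, 0 without the pooled KO libraries, 0 with up to 20% mitochondrial UMIs and 2 at resolution 2. For same-numbered libraries r over genes was from -0.25 to -0.22 in whole libraries and from -0.30 to -0.026 in the 3 classes tested. With 2 numbers shared by unpooled libraries and no other pairs set beside them, this cannot decide whether libraries are paired. As nothing in the labels ties them, the numbers are not taken as pairs. In T-like cells the cause of these changes was not tested. The members' precision is limited by few UMIs: at 28747 UMIs, the smallest myeloid-like library, 3 UMIs are 104 CPM.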
